A study of Mus musculus with 6 samples.

Results

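Txnip, the alpha-arrestin genes Arrdc1, Arrdc2, Arrdc3 and Arrdc4, and the glucose-responsive transcription factor genes Mlxip, Mlxipl and Mlx were followed in mouse bone marrow stromal cells that had taken up apoptotic thymocytes. The genes were matched by symbol, and all 8 were found among the 53735 features of the count table. They were put together as a functional family with the difference between fed and control libraries in view, so their own differences are given below as a description of these libraries and carry no independent support. The fed group held 3 libraries from wild-type stromal cells that had received 5000000 fluorescently labelled apoptotic thymocytes per well for 24 h at 5% oxygen and were sorted as label-positive. The control group held 3 libraries from wild-type stromal cells that received no thymocytes and were also sorted, but without a label to select on. Both came from lineage-, CD45-, CD31- and CD51+ marrow cells expanded at 2% oxygen to passage 2 or 3, so they are cultured and not freshly isolated stroma. The labels do not say at which oxygen the control wells were held over those 24 h or whether their medium was changed, so uptake of cells and such conditions cannot be told apart. Nor can a response to uptake be told apart from the choice by the sort of those cells that had taken up label. Nothing states that libraries of a group came from separate animals or cultures. The p-values are therefore set by how much these 6 libraries vary, and that variation may be technical.

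The 8 genes belong to a circuit through which cells sense glucose. Mlxip encodes MondoA and Mlxipl encodes ChREBP, basic helix-loop-helix leucine zipper factors that pair with Mlx and, when glucose 6-phosphate rises, bind carbohydrate response elements in DNA. Txnip and Arrdc4 are well-known targets of MondoA, and their proteins act back on the pathway by lowering glucose uptake. Txnip encodes thioredoxin-interacting protein, which binds thioredoxin and promotes endocytosis of glucose transporters. The alpha-arrestins are adaptors that link membrane proteins to ubiquitin ligases of the NEDD4 family, and Arrdc3 is known for its part in the turnover of beta-adrenergic receptors.

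The sequences just before the transcript starts of Txnip and Arrdc4 are shown as a description, since these genes share an upstream factor. Both are from RefSeq on GRCm38.p6, read 5′ to 3′ on the strand of the gene, and all 8 genes had an entry. The Txnip window is chr3:96557707-96557956 on the plus strand and the Arrdc4 window is chr7:68749239-68749488 on the minus strand. Capitals mark CCAAT boxes (CCAAT), the FOXO motif (TGTTTAC, here on the opposite strand as GTAAACA), single E-boxes (CACGTG) and, in Txnip, the fixed bases of the nearest match to a carbohydrate response element, each searched on both strands.
Txnip: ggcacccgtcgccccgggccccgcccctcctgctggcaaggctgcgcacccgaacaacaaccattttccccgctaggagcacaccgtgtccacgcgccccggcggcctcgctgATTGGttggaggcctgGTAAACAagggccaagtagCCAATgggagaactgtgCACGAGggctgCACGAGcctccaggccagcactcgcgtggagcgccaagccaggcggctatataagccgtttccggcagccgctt
Arrdc4: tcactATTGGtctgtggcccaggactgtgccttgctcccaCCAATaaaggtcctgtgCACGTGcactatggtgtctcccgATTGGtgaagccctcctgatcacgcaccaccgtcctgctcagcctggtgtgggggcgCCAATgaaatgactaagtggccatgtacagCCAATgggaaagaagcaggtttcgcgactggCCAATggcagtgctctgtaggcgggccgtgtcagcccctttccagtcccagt

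The carbohydrate response element was written as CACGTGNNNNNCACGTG, a pair of E-boxes 5 bases apart, and each window was scored by mismatches in the 12 fixed bases. Txnip had a match with 2 mismatches from -85 to -69, counted from the transcript start, and 0.779% of all 32851 promoter windows held a match at least as close. The closest window of Arrdc4, from -204 to -188, had 3 mismatches, as did that of a Mlxipl start, a level reached by 7.02% of all promoters. In Arrdc4 this window overlaps a perfect single E-box from -193 to -188, a motif present in 6.02% of promoters and also found before a Mlx and a Mlxipl start. The remaining members had 4 or 5 mismatches, and 37.7% of promoters held a match with up to 4. Arrdc4 also carried 6 CCAAT boxes within the 250 bases, while Txnip carried 2. At least 1 CCAAT box was present in 33.8% of promoters and at least 6 in 19 promoters (0.0578%), a threshold set after the Arrdc4 window was seen. Txnip alone among the members held the FOXO motif, at -121 to -115, and 3.17% of promoters do. A match in letters is a description of these windows and says nothing of binding. Only these 250 bases were searched, and whether the matches bear on the RNA levels was not tested.

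**Figure D1:**
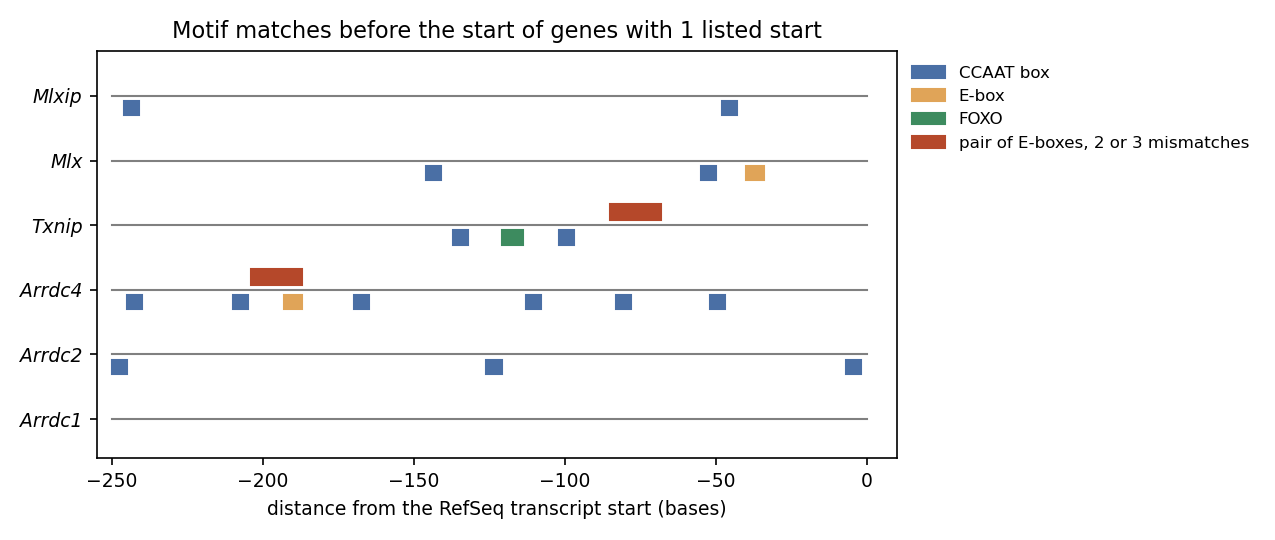
Positions of motif matches in the 250 bases before the RefSeq transcript start of the 6 members with a single listed start; the x axis is distance from that start in bases, and pairs of E-boxes with 2 or 3 mismatches are drawn above the line. Txnip has the closest pair of E-boxes at -85 to -69, and Arrdc4 has 6 CCAAT boxes.

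The libraries held 20034583 to 22410047 counts in the fed group and 19069074 to 21949519 in the control group. Of 13092 genes tested across the table, 5175 passed an adjusted p of 0.05. All 12 listed stromal markers had counts, summing to 32041 to 33971 CPM (counts scaled to library size) in fed and 36581 to 38061 CPM in control libraries. Of these markers, 1 was called higher in fed cells (Nt5e) and 7 lower (Pdgfra, Pdgfrb, Ly6a, Col1a1, Col1a2, Thy1 and Eng). The shares called over all genes tested were 20.5% higher and 19.0% lower. Of 15 thymocyte markers, 11 had a count, Ptcra, Rag2, Cd3g and Cd2 were at 0 in every library, and the summed level, most of it Tcf7, was 3.08 to 4.62 CPM in fed against 3.02 to 3.42 CPM in control libraries. For some of the other thymocyte markers, a few reads were present in every fed library and nearly absent from control libraries. Rag1 had 7, 6 and 12 reads in fed against 0, 2 and 1 in control libraries, and Ptprc had 5, 2 and 3 against 0, 1 and 0. Dntt, Cd8a and Cd8b1 had 1 to 5 reads in each fed library and 0 in each control library. The rest did not follow this. Lck had 7, 4 and 12 reads in fed against 8, 11 and 15 in control libraries, and Themis 0, 0 and 1 against 1, 1 and 1. Cd4 and Cd3e had reads only in fed replicate 1, and Cd3d only in control replicate 2. Of 10 macrophage markers, 9 had a count, Fcgr1 was at 0, and they summed to 14.5 to 16.7 CPM in fed against 9.54 to 10.8 CPM in control libraries, with Lyz2 called higher. The macrophage genes C1qa, C1qb, C1qc and Adgre1 had 3 to 10 reads in each fed library and 0 in each control library. Csf1r, at 5.40 CPM in fed and 5.78 CPM in control cells, and Cd68, at 1.30 and 1.14 CPM, were not called. Itgam had 0, 2 and 2 reads in the fed libraries and 0 in each control library. The endothelial markers summed to at most 5.25 CPM with Cdh5 and Emcn at 0, and the erythroid markers to at most 0.236 CPM. The part of these cells in the results was not tested. In such bulk RNA, fewer cells expressing a gene and less of its RNA per cell cannot be told apart.

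Among the 8 genes, 3 were lower in fed cells, none was higher, 4 did not pass and Mlxipl had too few reads to test in edgeR's quasi-likelihood test. None was higher at an unadjusted p under 0.05 or with DESeq2 either. The 3 lower were Arrdc4, Arrdc3 and Mlxip, in order of size, and these were also the only members whose fed and control libraries did not overlap. Txnip, the member with the highest level per length, fell short of the threshold with a difference of 6.58% in the same direction. Across all genes tested, 39.5% passed in either direction, 20.5% being higher and 19.0% lower in fed cells. The balance of all calls moved with the scaling, from 51.8% of calls higher to 61.1% with library totals only and 48.0% with upper-quartile scaling. The groups did not overlap for 49.1% of all genes tested, with fed below control for 24.0%. Since the genes were chosen on this contrast, nothing is read from the members' share.

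Per length, the family spanned a wide range of levels. Levels between genes are compared as CPM per kilobase of union exon length in GENCODE M21. Txnip stood at 30.1 ± 1.25 in fed and 32.2 ± 1.29 CPM per kb in control cells (SD, n = 3 each), above 88.0% of the tested genes with a length. Arrdc4 came next at 8.79 ± 0.242 in fed and 13.8 ± 0.412 CPM per kb in control cells. Mlx had 8.005 ± 0.317 in fed and 7.72 ± 0.400 CPM per kb in control cells, and Mlxip 7.11 ± 0.413 and 8.09 ± 0.170 CPM per kb. The control libraries of Mlx and Mlxip overlapped, at 7.39 to 8.17 for Mlx and 7.91 to 8.24 CPM per kb for Mlxip, so their order there is not set. With this length Mlx lay above Mlxip in every fed library and not far under Arrdc4, whose lowest fed library had 8.53 CPM per kb against 8.35 in the highest for Mlx. Arrdc3 had 4.83 ± 0.107 in fed and 5.68 ± 0.0633 CPM per kb in control cells, Arrdc1 3.44 ± 0.0837 and 3.30 ± 0.349, and Arrdc2 0.639 ± 0.0579 and 0.541 ± 0.0825. With the longest transcript as the length, the mean over the 6 libraries was 34.4 CPM per kb for Txnip and 0.810 for Arrdc2, still the ends of the order among the 7 tested members. Arrdc3 then had 7.97, against 5.26 with the union exon length, and Mlxip, at 8.67, stood above Mlx, so the order of Mlx and Mlxip depends on the length used.

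**Figure D2:**
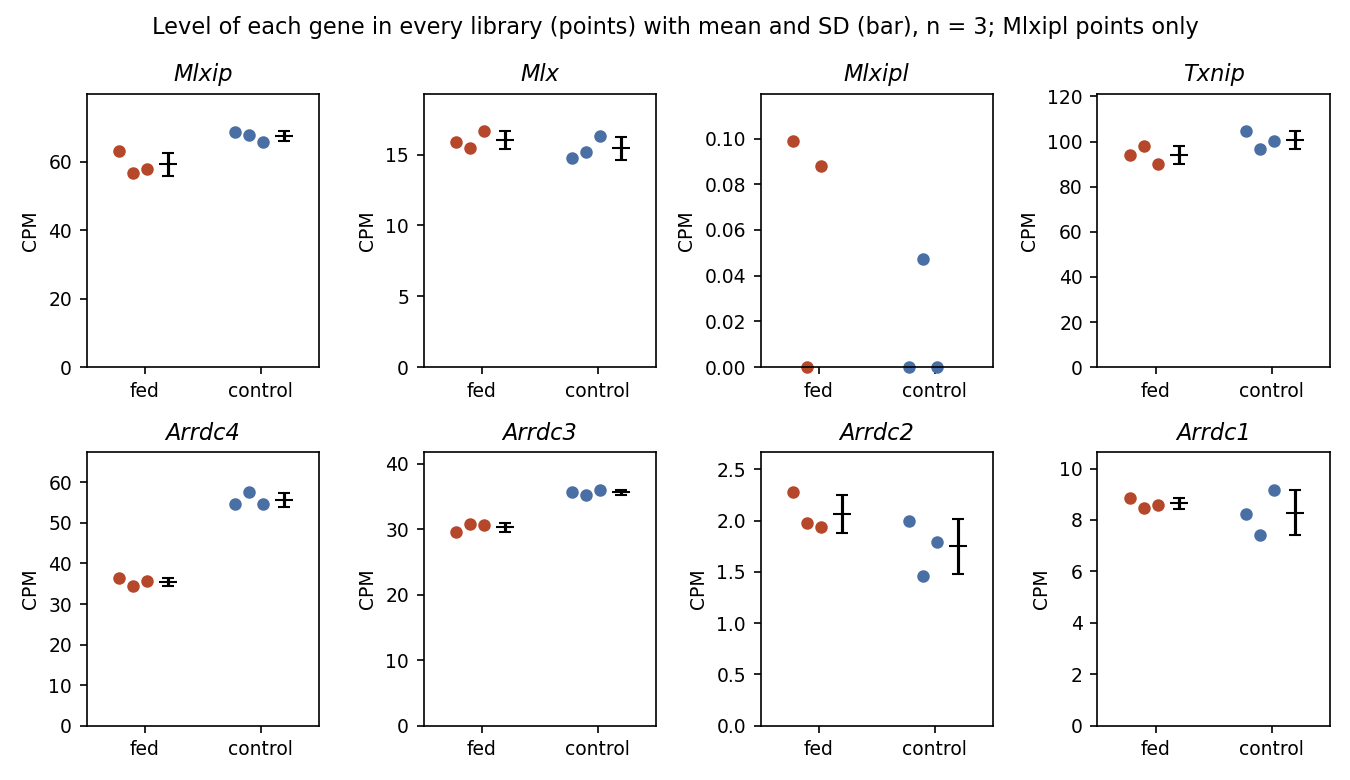
CPM of each of the 8 genes (y axis, from 0) in 3 fed libraries (left) and 3 control libraries (right); points are libraries and the black bar is the mean with its SD (points only for Mlxipl). Arrdc4, Arrdc3 and Mlxip have every fed library below every control library, and Mlxipl lies at the limit of detection.

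Of the transcription factors, MondoA's gene Mlxip (chromosome 5, 123394798 to 123457932, plus strand, GRCm38) was lower in fed cells. It had 63.1, 56.6 and 57.9 CPM in the fed libraries, against 68.6, 67.7 and 65.8 CPM in the control libraries. Every fed library lay below every control library, the nearest being fed replicate 1 and control replicate 3. The log2 fold change was -0.19 ± 0.046 (SE), and 56.2% of all genes tested had a smaller absolute change. Its partner Mlx (chromosome 11, 101087277 to 101092207, plus strand) had 15.9, 15.5 and 16.7 CPM in fed and 14.8, 15.2 and 16.3 CPM in control libraries. These ranges overlapped, and the log2 fold change was 0.05 ± 0.071 with a 95% interval of -0.09 to 0.20. Mlx shares 385 exonic bases with Psmc3ip on the opposite strand, which was itself higher in fed cells by 0.78 on the log2 scale (adjusted p = 8.67e-05, edgeR's quasi-likelihood test). The strand setting of the counting is not given in the sources used here, so reads in the shared stretch are uncertain for both genes. The same limit holds for Mlxip, which shares 267 exonic bases with the antisense gene Gm15747. The number of Mlxip reads per Mlx read was 3.98, 3.66 and 3.47 in fed and 4.64, 4.45 and 4.03 in control libraries, with no overlap.

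ChREBP's gene Mlxipl (chromosome 5, 135089890 to 135138382, plus strand), the main glucose-responsive factor of liver and fat, was at the edge of detection. It had 2, 0 and 2 reads in the fed libraries, against 0, 1 and 0 reads in the control libraries. A count of 0 allows a level of up to 0.132 to 0.158 CPM at these depths (3 counts per library, counting error only), and no library exceeded its limit. No fold is given for it.

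Txnip (chromosome 3, 96557957 to 96561883, plus strand) had 94.2, 97.9 and 90.0 CPM in the fed libraries, against 104.8, 96.7 and 100.4 CPM in the control libraries. The groups overlapped, since fed replicate 2 exceeded control replicate 2. The log2 fold change was -0.10 ± 0.043 (SE), with an unadjusted 95% interval of -0.19 to -0.01 and an adjusted p of 0.0737 in edgeR's quasi-likelihood test over all genes. The adjusted p depended on the processing. It was 0.0330 with a replicate block, 0.0432 with upper-quartile scaling, 0.234 with library totals only and 0.301 without fed replicate 3. An antisense gene, Gm15441, shares 606 exonic bases with Txnip and has no entry under that symbol in the count table. With the strand setting not given, its reads could be part of the Txnip count.

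Arrdc4 (chromosome 7, 68736995 to 68749241, minus strand) moved most of the family. It had 36.4, 34.4 and 35.6 CPM in the fed libraries, against 54.7, 57.5 and 54.6 CPM in the control libraries. The highest fed library lay far below the lowest control library, and within each group the coefficient of variation was small, at 2.75% in fed and 2.99% in control cells. Arrdc4 RNA fell by 36.2%, a log2 fold change of -0.65 ± 0.048 (adjusted p = 2.73e-09). Of all genes tested, 273 were called lower with a more negative log2 fold change. The decrease held without any single library, with log2 fold changes between -0.67 and -0.62.

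Because Txnip and Arrdc4 are read in the same libraries, their ratio does not depend on the scaling between libraries. There were 2.59, 2.84 and 2.53 Txnip reads per Arrdc4 read in the fed libraries, against 1.91, 1.68 and 1.84 in the control libraries. The ratio averaged 2.65 ± 0.166 in fed and 1.81 ± 0.119 in control cells (SD, n = 3 each), higher in every fed library and 1.46 times as high on average. It shows unequal change of the 2 RNAs, not which of them was constant.

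**Figure D3:**
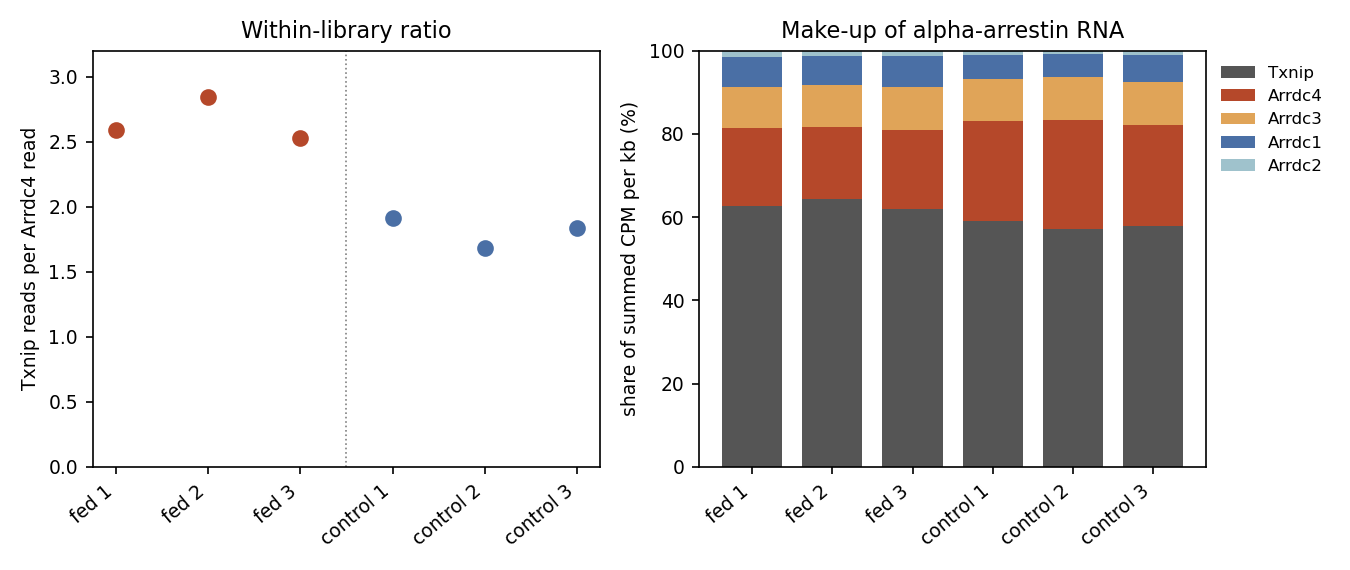
Left, Txnip reads per Arrdc4 read in each library, with fed libraries in red and control libraries in blue; right, the share of each alpha-arrestin in their summed CPM per kb (%). The ratio is 2.53 to 2.84 in fed and 1.68 to 1.91 in control libraries, and the Arrdc4 share is smaller in every fed library.

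Arrdc3 (chromosome 13, 80883384 to 80896042, plus strand) was also lower. It had 29.5, 30.7 and 30.6 CPM in the fed libraries, against 35.6, 35.2 and 36.0 CPM in the control libraries. The groups were apart by several times their spread, which was 2.22% of the mean in fed and 1.11% in control cells. Its log2 fold change was -0.23 ± 0.052, a decrease smaller than that of Arrdc4, and its reads per Arrdc4 read were higher in fed cells, at 0.853 ± 0.0408 against 0.641 ± 0.0255 in control cells.

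Arrdc1 (chromosome 2, 24925352 to 24935252, minus strand), whose human protein drives budding of vesicles from the plasma membrane, did not pass. It had 8.87, 8.46 and 8.59 CPM in the fed libraries, against 8.25, 7.41 and 9.17 CPM in the control libraries. The fed libraries lay inside the control range, and the log2 fold change of 0.06 ± 0.099 had a 95% interval of -0.14 to 0.27. Without control replicate 2 it was -0.0087, so no direction can be given. Arrdc2 (chromosome 8, 70835129 to 70839720, minus strand) was the least abundant measurable member, at 46, 43 and 44 reads in the fed libraries, against 43, 31 and 34 reads in the control libraries. In CPM these were 2.28, 1.98 and 1.94 for fed and 1.99, 1.46 and 1.79 for control libraries, which overlapped. The log2 fold change of 0.24 ± 0.19 had a 95% interval of -0.17 to 0.64, which leaves its direction unresolved at this depth. Arrdc5, the remaining alpha-arrestin gene of the mouse, had 0 reads in all 6 libraries.

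**Figure D4:**
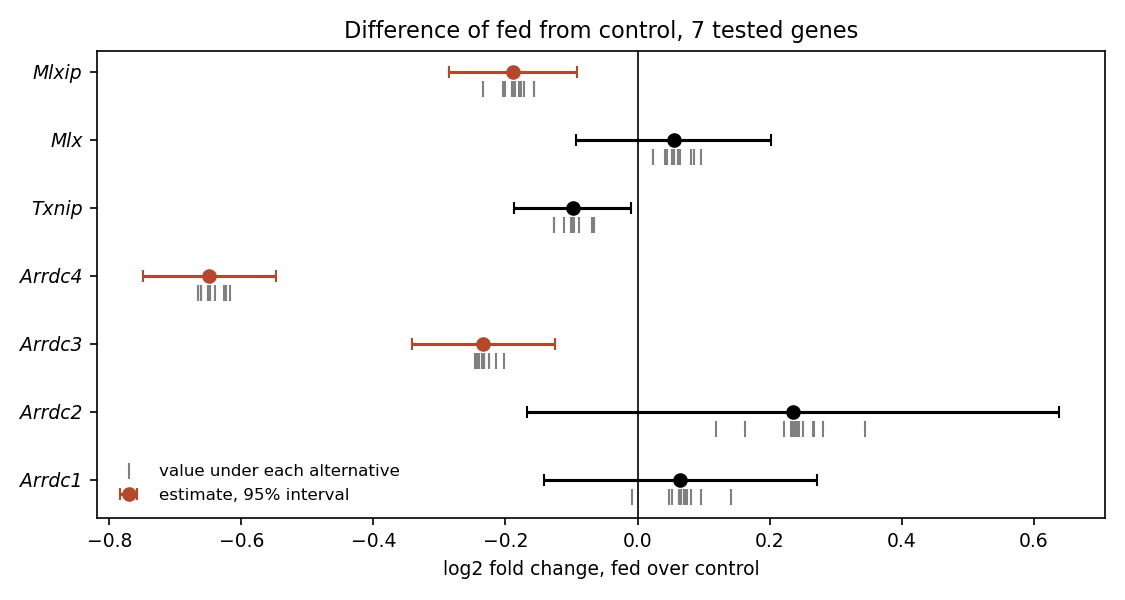
Log2 fold change of fed over control (x axis) for the 7 tested members, with unadjusted 95% intervals; red marks members that passed an adjusted p of 0.05 and grey ticks give the value under each alternative. Arrdc4 lies at -0.65, apart from the other members, and the interval of Arrdc2 is the widest.

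The alpha-arrestin RNAs, Txnip included, had a lower summed level per length in fed cells, and this was not shared by every gene. Arrdc4 differed most, at 8.79 CPM per kb in fed and 13.8 in control cells, and Arrdc3 had 4.83 and 5.68. Txnip, at 30.1 and 32.2 CPM per kb, had overlapping groups and did not pass, and the means of Arrdc1 and Arrdc2 were not lower. The summed level was 48.1, 48.7 and 46.6 CPM per kb in the fed libraries, against 56.7, 54.2 and 55.6 CPM per kb in the control libraries. Txnip made up 63.0% ± 1.20 of this sum in fed and 58.0% ± 1.06 in control cells, while Arrdc4 made up 18.4% ± 0.783 in fed and 24.8% ± 1.26 in control cells (SD, n = 3 each). The shares of Txnip and Arrdc4 did not overlap between the groups, and that of Arrdc3 did, at 10.1% ± 0.353 in fed and 10.2% ± 0.178 in control cells. Arrdc1, at 7.20% in fed and 5.94% in control cells, and Arrdc2, at 1.34% and 0.973%, also had larger shares in every fed library. All shares are parts of the same sum, so a fall of Arrdc4 alone enlarges the others.

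The genes most like Txnip and Arrdc4 over the 6 libraries were taken by Pearson's r of log2 CPM among the 11334 tested genes whose mean reached 2 CPM. For Txnip these were AC136146.4, Muc1, Slc16a1, Mocs2 and Efna1, with r between 0.979 and 0.995. Slc16a1 encodes the lactate and pyruvate transporter MCT1, and its log2 fold change was -0.07. For Arrdc4 they were Nynrin, Myl12b, Fam13c, Hist1h2bc and Kdm5b, with r between 0.9975 and 0.9988. An r over 0.95 was reached by 32 genes with Txnip and by 790 with Arrdc4. The 6 points of every gene share their libraries and fall into the same 2 groups, so r is given as a description. Of the 5 genes named for Txnip only Muc1 was called, and all 5 named for Arrdc4 were called lower. Muc1 was low and its groups overlapped, at 2.33, 3.13 and 1.72 CPM in fed against 4.22, 2.93 and 3.58 CPM in control libraries.

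The partners with which Mlx and Max pair went in different directions in fed cells. Of 9 tested genes of this network, 5 fell, 3 rose and 1 did not pass. Over all genes tested, 19.0% were called lower and 20.5% higher. The network had a median log2 fold change of -0.24 beside -0.01 over all genes. Mxd4, a repressor that pairs with Max and Mlx, fell to 105.9 ± 7.19 CPM in fed cells, against 172.3 ± 7.95 CPM in control cells (log2 fold change -0.70, adjusted p = 3.43e-09 in edgeR's quasi-likelihood test). The repressor genes Mxi1 and Mnt fell by 0.34 and 0.31 on the log2 scale. Mxd3, whose expression is known to accompany S phase, rose to 24.7 ± 2.75 CPM in fed cells, against 14.6 ± 1.13 CPM in control cells. The growth regulator Myc rose by 0.17 on the log2 scale (adjusted p = 0.0115), and the call did not survive DESeq2 (0.0545) or leaving out control replicate 1 (0.0572). Max, the shared partner, had 62.0 ± 3.69 CPM in fed and 60.6 ± 1.48 CPM in control cells and did not pass.

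Glucose uptake and the use of glucose 6-phosphate set the signal to which MondoA responds. Of 14 tested genes of this group, 6 fell, 1 rose and 7 did not pass, with -0.13 as the median log2 fold change. The shares called over all genes tested were 19.0% lower and 20.5% higher. The glucose transporter gene Slc2a1, whose protein TXNIP removes from the cell surface, fell to 165.8 ± 2.45 CPM in fed cells, against 194.1 ± 3.79 CPM in control cells. The phosphoglucomutase gene Pgm2, the transporter gene Slc2a10 and the glycolytic isomerase gene Gpi1 fell by 0.32, 0.39 and 0.20 on the log2 scale.

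Other genes described as targets of MondoA or ChREBP changed in both directions. Of 20 tested, 5 fell, 3 rose and 12 did not pass, with a median of -0.14. The 8 called lie near the 39.5% called over all genes tested, so nothing is read from their number. DESeq2, or leaving out fed replicate 2, gave 4 lower and 1 higher, and upper-quartile scaling 6 lower and 1 higher. The desaturase gene Scd1 fell to 105.5 ± 1.502 CPM in fed cells, against 132.4 ± 2.92 CPM in control cells. The transketolase gene Tkt and the repressor gene Bhlhe40 fell by 0.19 and 0.16, while the elongase gene Elovl6 rose by 0.33 on the log2 scale. The hexokinase gene Hk2 had 68.3 ± 4.49 CPM in fed and 65.8 ± 5.17 CPM in control cells, which overlapped. The liver and fat genes G6pc and Thrsp had no reads in any library.

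In the thioredoxin system and among partners of TXNIP, 3 of 9 tested genes rose, 3 fell and 3 did not pass. Among all genes tested, 20.5% were called higher and 19.0% lower. The thioredoxin reductase gene Txnrd1 rose to 158.8 ± 7.01 CPM in fed cells, against 116.8 ± 1.31 CPM in control cells, and mitochondrial thioredoxin, Txn2, rose by 0.26 on the log2 scale. Cytosolic thioredoxin, Txn1, which TXNIP binds, had 280.0 ± 4.80 CPM in fed and 266.9 ± 13.1 CPM in control cells and did not pass. Ddit4, an mTORC1 inhibitor whose protein forms a complex with TXNIP, fell by 1.31 on the log2 scale, and the cell-cycle inhibitor Cdkn1b by 0.31.

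The ubiquitin ligases to which alpha-arrestins bind also changed in both directions. Of 8 tested genes of the NEDD4 family, 3 rose, 2 fell and 3 did not pass, and without fed replicate 2 only 3 of them passed. The share called over all genes tested was 20.5% higher and 19.0% lower. Nedd4, the founding member of the family, fell to 2745 ± 11.7 CPM in fed cells, against 3385 ± 40.5 CPM in control cells. Wwp2 fell by 0.14, a call lost without fed replicate 2 (adjusted p = 0.0505), whereas Smurf1 and Smurf2 were higher by 0.24 and 0.12 (log2). The Smurf2 call was lost without control replicate 2 (0.0659). Itch, a ligase known to degrade TXNIP, had 76.5 ± 1.57 CPM in fed and 81.8 ± 2.99 CPM in control cells and did not pass. It falls outside the rule for named genes and was chosen after its values were seen.

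Of 9 genes of AMPK and AKT, kinases that phosphorylate TXNIP, 4 rose and none fell at an adjusted p of 0.05 in edgeR's quasi-likelihood test. None was lower at an unadjusted p under 0.05 or with DESeq2. By comparison, 20.5% of all genes tested were called higher and 19.0% lower. The catalytic AMPK subunit Prkaa2 was low, at 2.44 ± 0.206 CPM in fed and 1.33 ± 0.0582 CPM in control cells, and rose by 0.88 on the log2 scale. The regulatory subunit Prkag2 rose by 0.29 and Akt1 by 0.20. Prkag1 rose by 0.13 (adjusted p = 0.0282), a call lost with DESeq2 and in all but 1 of the 6 fits that left out a library.

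**Figure D5:**
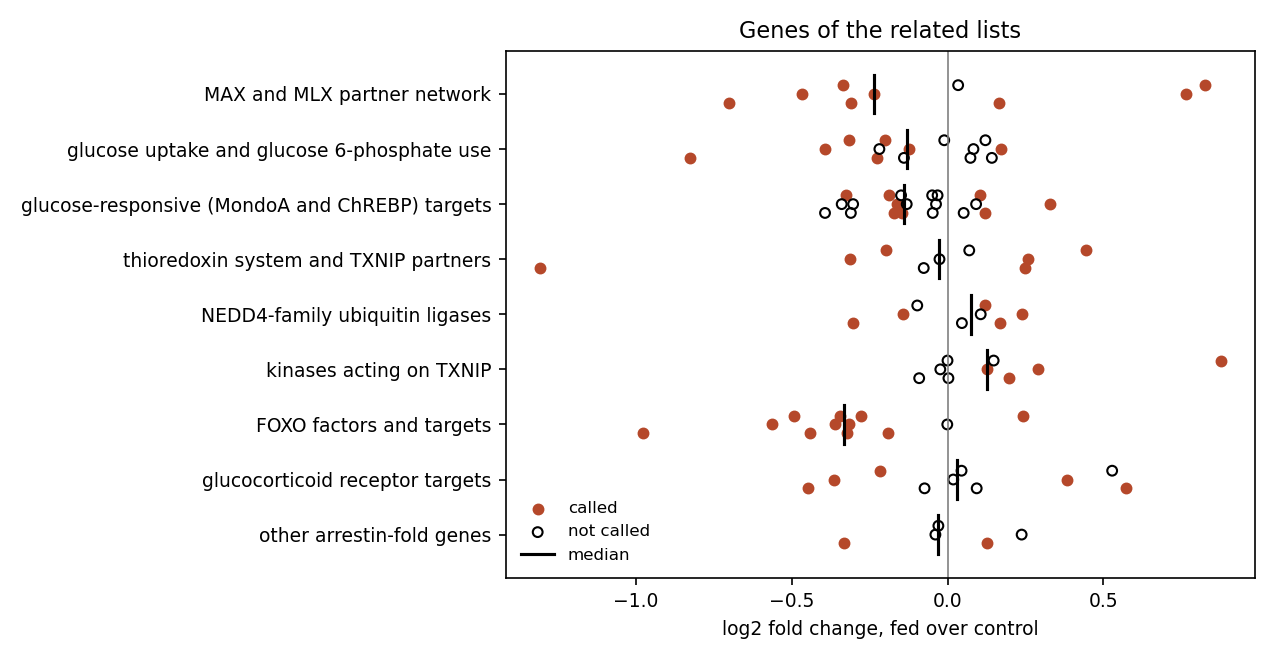
Log2 fold change of fed over control (x axis) for the tested genes of 9 related lists; filled points passed an adjusted p of 0.05, open points did not, and vertical bars are list medians. The lists spread to both sides of 0, and the list of FOXO factors and targets has 10 of its 12 tested genes called lower. Over all genes tested, 19.0% were called lower.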

How the data were processed

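The authors deposited raw counts per gene symbol for 6 libraries of a stranded, poly(A)-selecting preparation from 200 ng of total RNA. Per the submitters' processing notes, reads were handled with Trimmomatic 0.36, STAR 2.6.0c, Subread 1.6.1 (featureCounts) and MultiQC 1.5 on GRCm38. The sources used here do not give the annotation release, the strand setting or how multi-mapping reads were handled.

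In R 4.3.3, edgeR 4.0.16 kept 13092 genes by filterByExpr, scaled libraries by TMM and compared fed with control by the robust quasi-likelihood F-test, with no replicate block and Benjamini-Hochberg adjustment over all genes tested. Genes under an adjusted p of 0.05 were called. CPM use the TMM-scaled totals, and SEs derive from the F statistic. Names that read as dates (27 features, 0.227% of the counts) stayed in the fit unnamed. Libraries of a group differed by more than sampling noise (chi-square per degree of freedom of at least 2.67), so each was kept.

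The members, the 9 gene lists and the marker lists were chosen with earlier results of these data known. From each list up to 4 called genes with the smallest adjusted p are named, plus Hk2, Slc2a1 and Myc, and for Txnip and Arrdc4 the 5 genes most like each. Genes named beyond this were chosen after their values were seen. Alternatives were other scalings and filters, DESeq2 1.42.0, limma 3.58.1 with voom, no robust estimation, a replicate block, a stricter threshold, another gene length and each library left out in turn. Protein sequences were not analysed here.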

Additional observations from a re-analysis of the deposited data

How the results depend on the processing

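Over 16 alternatives, 3615 to 5848 genes were called, against 5175, and 3 or 4 members. Arrdc4, Arrdc3 and Mlxip stayed lower and under the threshold in all 15 alternatives run for single genes, with log2 fold changes of -0.67 to -0.62, -0.25 to -0.20 and -0.23 to -0.16. Txnip passed, at -0.11, with upper-quartile scaling and, at -0.10, with the replicate block (adjusted p = 0.0330), and the adjusted p was 0.0330 to 0.301 over its alternatives. Arrdc1 was -0.0087 without control replicate 2 and 0.14 without control replicate 3. Same-numbered libraries deviated together with r of 0.149, 0.0226 and 0.134. Nothing states that the replicate numbers pair the cultures, so they were not taken as pairs. Every library correlated best with its own number, a hint from the data, and the block gave 5848 calls, with 12 glucose-responsive targets called (4 higher, 8 lower). In the lists, DESeq2 called 1 of the other arrestin-fold genes in place of 2, and 5 glucose-responsive targets in place of 8. Leaving out each library gave 1 to 2 of these arrestin-fold genes, 5 to 8 of these targets and 3 to 5 NEDD4-family ligases. The cause was not tested. With the longest transcript as the length, levels per kb moved for Txnip, Arrdc1, Arrdc2, Arrdc3 and Mlxip. Low counts limit Mlxipl and Arrdc2.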

Other observations

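The listed FOXO factors and genes known to respond to them were mostly lower in fed cells. Txnip is also known to respond to FOXO factors but is not counted in this list. Of 12 tested genes, 10 fell, 1 rose and 1 did not pass, with a median log2 fold change of -0.33 beside -0.01 over all genes. Across the table, 19.0% of genes tested were called lower and 20.5% higher. The list was chosen with earlier results of these data known. Fbxo32, a ubiquitin ligase subunit of muscle atrophy, fell to 42.3 ± 0.687 CPM in fed cells, against 83.2 ± 5.99 CPM in control cells (SD, n = 3 each). Sesn3, Ccng2 and Foxo3 fell by 0.56, 0.49 and 0.32 on the log2 scale. The gene that rose was itself a FOXO factor, Foxo1, by 0.24 on the log2 scale (adjusted p = 0.00247, edgeR's quasi-likelihood test). Txnip, which carries the FOXO motif in its promoter window, had a log2 fold change of -0.10 in the same libraries and did not pass. Whether FOXO factors had a part in any of these differences was not tested.

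Glucocorticoid receptor targets went both ways, with 2 of 10 tested genes higher, 3 lower and 5 not past the threshold. Over all genes tested, 20.5% were higher and 19.0% lower. Fkbp5, a co-chaperone of the receptor, rose to 45.8 ± 0.878 CPM in fed cells, against 30.8 ± 0.579 CPM in control cells, and the kinase gene Sgk1 rose by 0.38 on the log2 scale. The metallothionein genes Mt1 and Mt2 fell by 0.37 and 0.45.

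Of 5 other tested genes with an arrestin fold, Arrb1 fell, Vps26a rose and 3 did not pass. The share called over all genes tested was 39.5%. Arrb1, which encodes beta-arrestin 1, fell to 111.2 ± 4.05 CPM in fed cells, against 140.1 ± 2.13 CPM in control cells. The retromer subunit gene Vps26a rose by 0.13 on the log2 scale, a call lost with DESeq2 (adjusted p = 0.0834) and without fed replicate 2 (0.142), fed replicate 3 (0.0767), control replicate 1 (0.0622) or control replicate 2 (0.0775).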
